A study of Rattus norvegicus with 6 samples.

Results

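The tubulin isotypes examined were 10 genes of rat, chosen by name, of 34156 genes in the deposited count table. They are the alpha-tubulin genes Tuba1a, Tuba1b, Tuba1c and Tuba4a and the beta-tubulin genes Tubb2a, Tubb2b, Tubb3, Tubb4b, Tubb5 and Tubb6. RNA-seq had been carried out on 6 samples of purchased wild-type rat fibroblast-like synoviocytes (RA-FLS, cells of the joint lining that form invasive tissue in rheumatoid arthritis). In the TNF-α group (n = 3), cells received 10 ng/mL TNF-α, and in the TNF-α+EMO group (n = 3), cells received 10 ng/mL TNF-α together with 80 μmol/L emodin (EMO), an anthraquinone of rhubarb. Both groups carried TNF-α, so the comparison addresses the addition of EMO to TNF-α and contains no untreated cells. The labels give day 5 for all samples, whereas the paper's methods describe a shorter incubation. The libraries are called biological replicates in the methods, but no source states that they came from separate cultures, so the p-values measure the spread between these libraries.

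Microtubules are polymers of heterodimers of 1 alpha-tubulin and 1 beta-tubulin chain, and several genes encode closely similar forms (isotypes) of each. In dividing cells they build the mitotic spindle, and in fibroblasts they guide vesicle traffic, polarity and migration. Nascent chains are folded with prefoldin, the cytosolic chaperonin and tubulin cofactors. The amount of tubulin mRNA is itself controlled by free tubulin, through recognition of the nascent amino terminus of the chain by TTC5. Isotypes differ by tissue, and Tubb3 is best known from neurons, whereas Tubb5, Tuba1b and Tubb6 are widespread.

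Of the 10 isotypes, 8 had enough counts to be tested, 7 of them were lower with EMO and none was higher, by edgeR's quasi-likelihood test with an adjusted p under 0.05. The same call was made for 41.4% of the 13614 genes tested in the lower direction and for 39.4% in the higher direction. With an absolute log2 fold change over 1 as a further condition, 3 isotypes (Tubb5, Tuba1b and Tuba1a) were lower and 0 higher, against 27.8% and 19.5% of the genes tested. For the 8 isotypes the log2 fold changes had a median of -0.71, and for all genes tested of -0.01. The 10 isotypes together took 0.391% to 0.423% of a library's counts with TNF-α and 0.129% to 0.141% with TNF-α+EMO. In bulk RNA, fewer cells with high tubulin and less tubulin mRNA per cell cannot be told apart.

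The promoters of the isotypes with the largest falls, Tubb5 and Tuba1b, of Tubb4b, which fell less, and of Tuba1c, which was not called, are shown to give the sequence context of the comparison. They are the 250 bases before the RefSeq transcription start in the assembly GRCr8, 5′ to 3′ on the gene's strand, and were not placed on the build of the counts. Capitals mark CCAAT (or ATTGG on the other strand), the GC box GGGCGG (or CCGCCC) and TATAAA (or TTTATA), and no 2 of the marked matches overlap.
Tubb5 (chr20:2917327-2917576, plus strand): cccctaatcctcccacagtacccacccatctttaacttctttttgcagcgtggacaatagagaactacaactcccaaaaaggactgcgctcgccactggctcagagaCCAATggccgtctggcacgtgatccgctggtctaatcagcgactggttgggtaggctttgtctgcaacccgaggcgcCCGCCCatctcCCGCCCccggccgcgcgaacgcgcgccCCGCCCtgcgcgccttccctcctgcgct
Tuba1b (chr7:131972588-131972837, minus strand): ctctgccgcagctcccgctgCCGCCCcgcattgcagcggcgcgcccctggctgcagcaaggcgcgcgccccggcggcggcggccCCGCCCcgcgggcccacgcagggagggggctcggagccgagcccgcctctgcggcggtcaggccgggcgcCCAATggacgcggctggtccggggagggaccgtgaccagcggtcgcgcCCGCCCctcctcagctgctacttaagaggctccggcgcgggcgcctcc
Tubb4b (chr3:28438456-28438705, minus strand): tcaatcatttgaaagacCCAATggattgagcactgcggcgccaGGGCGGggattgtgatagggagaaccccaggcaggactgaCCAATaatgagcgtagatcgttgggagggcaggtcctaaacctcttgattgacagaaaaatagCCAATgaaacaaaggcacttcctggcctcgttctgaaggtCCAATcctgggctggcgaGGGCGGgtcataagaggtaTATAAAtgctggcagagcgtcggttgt
Tuba1c (chr7:132070734-132070983, plus strand): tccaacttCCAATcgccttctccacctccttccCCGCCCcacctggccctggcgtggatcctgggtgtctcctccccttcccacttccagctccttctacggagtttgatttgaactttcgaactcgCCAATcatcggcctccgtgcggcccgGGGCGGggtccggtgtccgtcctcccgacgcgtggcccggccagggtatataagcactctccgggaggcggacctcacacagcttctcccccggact
A RefSeq promoter was found for all 10 isotypes. CCAAT was present in 8 of the 10, against 34.3% of 27457 promoters of that length, and the GC box in 9 of the 10, against 32.4%. TATAAA was found in 2 of the 10 (Tubb2a and Tubb4b), against 13.1%. The promoter of Tubb4b held 4 CCAAT matches, and that of Tubb5 held 1 CCAAT match and 3 GC boxes. Their share of G and C ranged from 52% in Tubb4b to 80.4% in Tuba1b, with a median of 52% over all promoters. A match of letters describes the window and is not a binding site.

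Tubb5, the most abundant beta-tubulin isotype here, lies on chromosome 20 from 3422461 to 3426371 (ENSRNOG00000061216; coordinates of all genes are as deposited, on the build Rnor_6.0 that the submitters' notes name). Its normalized count (the count scaled by TMM to the mean library size) was 31398, 31247 and 32202 with TNF-α and 8424, 8786 and 8589 with TNF-α+EMO. The groups were far apart, and the spread within a group (SD) was 1.62% of the mean with TNF-α and 2.11% with TNF-α+EMO. The log2 fold change was -1.88 (standard error, SE, 0.05, edgeR adjusted p = 9.2e-11), which left 27.2% of the level under TNF-α alone. Among all genes tested, 17.6% had a lower log2 fold change.

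Tuba1b, the most abundant alpha-tubulin isotype (ENSRNOG00000053468, chromosome 7, 140614752 to 140617721), had normalized counts of 18246, 18307 and 20588 with TNF-α and 5525, 6405 and 6161 with TNF-α+EMO. No library of either group came near the other group. The log2 fold change was -1.66 (SE 0.07, edgeR adjusted p = 3.9e-09), and 31.7% of the level remained. Tuba1a, a closely similar alpha-tubulin best known from the developing brain (ENSRNOG00000060728, chromosome 7, 140637287 to 140640953), had 4280, 4211 and 4682 normalized counts with TNF-α and 1812, 1975 and 2045 with TNF-α+EMO. Its log2 fold change was -1.18 (SE 0.07, edgeR adjusted p = 3.7e-08). The 2 genes lie 19.6 kb apart on the same strand, and Tuba1c follows 75.2 kb further on the other strand.

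Tuba1c, the third gene of this cluster (ENSRNOG00000021438, chromosome 7, 140716113 to 140723714), did not pass the test. It had 460.0, 245.7 and 427.7 normalized counts with TNF-α and 461.0, 727.5 and 858.7 with TNF-α+EMO. The highest TNF-α library and the lowest TNF-α+EMO library were practically equal, and the SD within a group was 30.6% and 29.7% of the mean. Its log2 fold change of 0.85 (standard error 0.34) had an adjusted p of 0.062 by edgeR, and the call depended on the setting, as the adjusted p ranged from 0.014 to 0.21 over 13 alternatives and the log2 fold change from 0.55 (without TNF-α replicate 2) to 1.09 (without TNF-α+EMO replicate 1). In 3 of them it passed, namely with DESeq2 (adjusted p = 0.032), without robust estimation (adjusted p = 0.014) and without TNF-α+EMO replicate 1 (adjusted p = 0.024). Near-identical copies add uncertainty to this gene. The rows LOC100909441 and LOC100911830, which the table describes as similar to the Tuba1c chain, together held 339, 321 and 400 counts with TNF-α and 149, 189 and 234 with TNF-α+EMO, and both were lower with EMO. Summed over Tuba1c and these 2 rows, the counts were 808, 573 and 839 with TNF-α and 596, 900 and 1077 with TNF-α+EMO, and the groups overlapped.

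Tuba4a, an alpha-tubulin of muscle, platelets and other mature cells (ENSRNOG00000003597, chromosome 9, 82415605 to 82419288), had 1007, 952.7 and 1050 normalized counts with TNF-α and 619.9, 687.6 and 561.3 with TNF-α+EMO. All 3 TNF-α+EMO libraries lay below the TNF-α libraries, with a log2 fold change of -0.69 (SE 0.09, edgeR adjusted p = 3.2e-05). Tubb4b, a widespread beta-tubulin that is also a component of cilia (ENSRNOG00000010170, chromosome 3, 2441733 to 2444281), had 4735, 4861 and 5134 normalized counts with TNF-α and 2762, 3052 and 3059 with TNF-α+EMO. Every TNF-α+EMO library was lower, with a log2 fold change of -0.73 (SE 0.06, edgeR adjusted p = 1.1e-06).

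Tubb6, a beta-tubulin prominent in fibroblasts (ENSRNOG00000018371, chromosome 18, 63130542 to 63140181), fell least of the isotypes that passed. Its normalized counts were 4151, 3885 and 4240 with TNF-α and 2725, 2927 and 3393 with TNF-α+EMO, a log2 fold change of -0.44 (SE 0.08, edgeR adjusted p = 4.5e-04), and 73.7% of the level remained. The groups did not overlap, although TNF-α+EMO replicate 3 came closer to the TNF-α libraries than the others. Tubb2a, a beta-tubulin abundant in brain (ENSRNOG00000017558, chromosome 17, 31493107 to 31498651), had 862.2, 1179 and 968.3 normalized counts with TNF-α and 623.0, 587.4 and 730.3 with TNF-α+EMO. Its log2 fold change was -0.63 (SE 0.12, edgeR adjusted p = 7.3e-04), with more spread between the TNF-α libraries (16.1% of the mean) than any other isotype that passed.

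**Figure D1:**
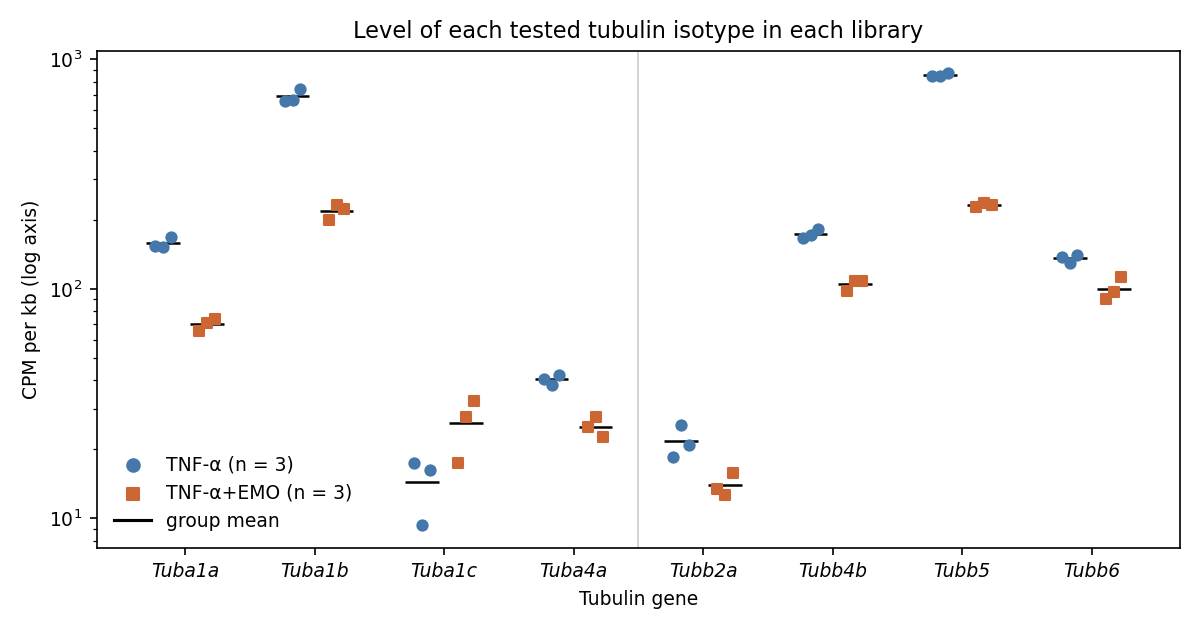
Level of the 8 tested isotypes in each library, as TMM-scaled CPM per kilobase of gene (log axis), with circles for the 3 TNF-α libraries, squares for the 3 TNF-α+EMO libraries and a line at each group mean. In 7 isotypes every TNF-α+EMO library lies below every TNF-α library, and in Tuba1c the highest TNF-α library (460.0 normalized counts) and the lowest TNF-α+EMO library (461.0 normalized counts) are level.

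In these normalized counts the groups did not overlap in any of the 8 tested isotypes, with TNF-α+EMO below in 7 and above, by about 1 count, in Tuba1c. In either direction, the groups did not overlap in 82.9% of all genes tested. At 3 libraries a group, exact permutation of one value gives no p below 0.1. TNF-α+EMO replicate 1 had the lowest level of the TNF-α+EMO group in 6 of the 8 isotypes, namely Tuba1a, Tuba1b, Tuba1c, Tubb4b, Tubb5 and Tubb6.

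The neuronal isotype Tubb3 (ENSRNOG00000017209, chromosome 19, 56220755 to 56229813) had 0 counts in every library. At totals of 16813322 to 17794455 counts per library, a count of 0 allows up to 3 counts per library, and no change could be measured. No other gene of the table overlaps its row. The nearest rows on either side, AC132057.1 and AC132057.2, also had 0 counts in every library, and the counted genes beyond them were Tcf25 (4173 to 12474 counts per library) and Def8 (233 to 511). Tubb2b (ENSRNOG00000017445, chromosome 17, 31441630 to 31482759), another beta-tubulin of neurons, had 0, 6 and 2 counts with TNF-α and 0, 4 and 3 with TNF-α+EMO. It was not tested, and a difference was not detectable at this depth. The expressed Tubb2a and the nearly silent Tubb2b are 10.3 kb apart. Reads that fit several of these near-identical genes could have been split or dropped by the counting, whose program and settings are not given in the sources used here.

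**Figure D2:**
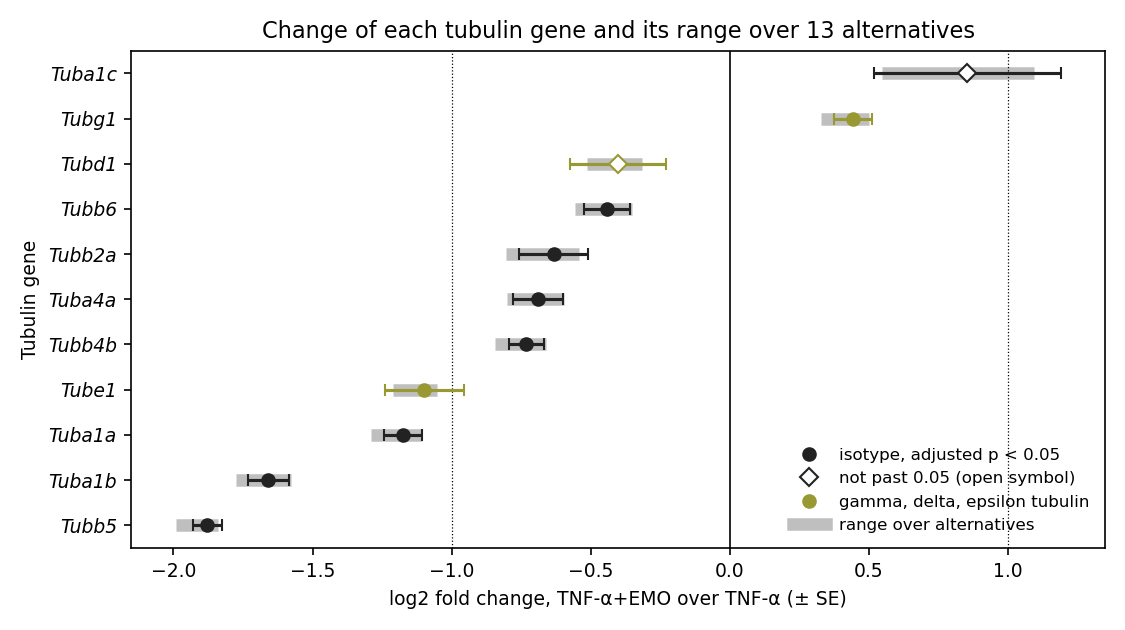
Log2 fold change (TNF-α+EMO over TNF-α) of the 8 tested isotypes and of gamma-, delta- and epsilon-tubulin, with bars for the standard error and grey bands for the range over 13 alternative settings. Filled circles passed an adjusted p of 0.05 and open diamonds (Tuba1c and Tubd1) did not, and the falls run from -0.44 in Tubb6 to -1.88 in Tubb5.

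Levels of different genes were compared per kilobase of gene, as CPM per kb (counts scaled to library size and gene length). With TNF-α, the order was Tubb5 (854 ± 13.9 CPM per kb, SD, n = 3), Tuba1b (689 ± 48.3), Tubb4b (174 ± 7.21), Tuba1a (158 ± 9.16), Tubb6 (136 ± 6.13), Tuba4a (40.3 ± 1.96), Tubb2a (21.6 ± 3.48) and Tuba1c (14.3 ± 4.39). Only Tubb4b and Tuba1a overlapped among neighbours in this order of the 8. With TNF-α+EMO the order was Tubb5 (232 ± 4.89), Tuba1b (218 ± 16.4), Tubb4b (105 ± 5.99), Tubb6 (100 ± 11.4), Tuba1a (70.0 ± 4.30), Tuba1c (25.9 ± 7.69), Tuba4a (25.0 ± 2.54) and Tubb2a (14.0 ± 1.61). Tubb5 and Tuba1b overlapped here, as did Tubb4b and Tubb6, and Tuba1c and Tuba4a. Tubb6 thus stood below Tuba1a with TNF-α and above it with TNF-α+EMO, and in neither group did these isotypes overlap.

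The alpha-tubulin level summed over its 4 isotypes was 872.5, 861.9 and 972.2 CPM per kb with TNF-α and 307.7, 358.2 and 351.8 with TNF-α+EMO. The beta-tubulin level summed over its 6 isotypes was 1172, 1170 and 1213 CPM per kb with TNF-α and 429.1, 455.2 and 468.6 with TNF-α+EMO. In both sums every TNF-α+EMO library was far below every TNF-α library. The log2 difference was -1.41 (standard error 0.09) for alpha- and -1.39 (standard error 0.04) for beta-tubulin, and the level with TNF-α+EMO was 37.6% and 38.0% of that with TNF-α (two-sided exact permutation p = 0.1 for each, the smallest possible). The ratio of summed beta- to alpha-tubulin was 1.32 ± 0.06 (SD, n = 3) with TNF-α and 1.33 ± 0.06 with TNF-α+EMO. The groups overlapped in this ratio, with a log2 difference of 0.02 (standard error 0.06, two-sided exact permutation p = 0.8).

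Within each sum, the leading isotype had a lower share with EMO. Tubb5 made up 72.4%, 72.1% and 71.7% of summed beta-tubulin with TNF-α and 53.0%, 52.1% and 49.5% with TNF-α+EMO, a difference of -20.5 percentage points. The share of Tubb6 was 11.5% ± 0.391 with TNF-α and 22.2% ± 1.64 with TNF-α+EMO (SD, n = 3 each), that of Tubb4b 14.6% ± 0.341 and 23.2% ± 0.483, and that of Tubb2a 1.83% ± 0.307 and 3.09% ± 0.291. The shares of these isotypes were higher with EMO although their levels were lower.

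In summed alpha-tubulin, Tuba1b made up 75.7%, 76.9% and 76.7% with TNF-α and 65.0%, 64.7% and 63.4% with TNF-α+EMO, a difference of -12 percentage points. The share of Tuba1a was 17.5% ± 0.169 and 20.7% ± 0.717, that of Tuba4a 4.48% ± 0.152 and 7.41% ± 0.884, and that of Tuba1c 1.58% ± 0.466 and 7.56% ± 1.79 in the same order. The Tuba1c share did not overlap between the groups, ranging from 1.08% to 2.00% with TNF-α and from 5.69% to 9.27% with TNF-α+EMO. The groups did not overlap in any of the 8 shares tested, and each had a two-sided exact permutation p of 0.1, the smallest this design allows (0.1 after Benjamini-Hochberg adjustment over the 8). Shares of one sum are not independent, since a loss in one isotype raises the others, but they do not depend on the scaling between libraries.

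**Figure D3:**
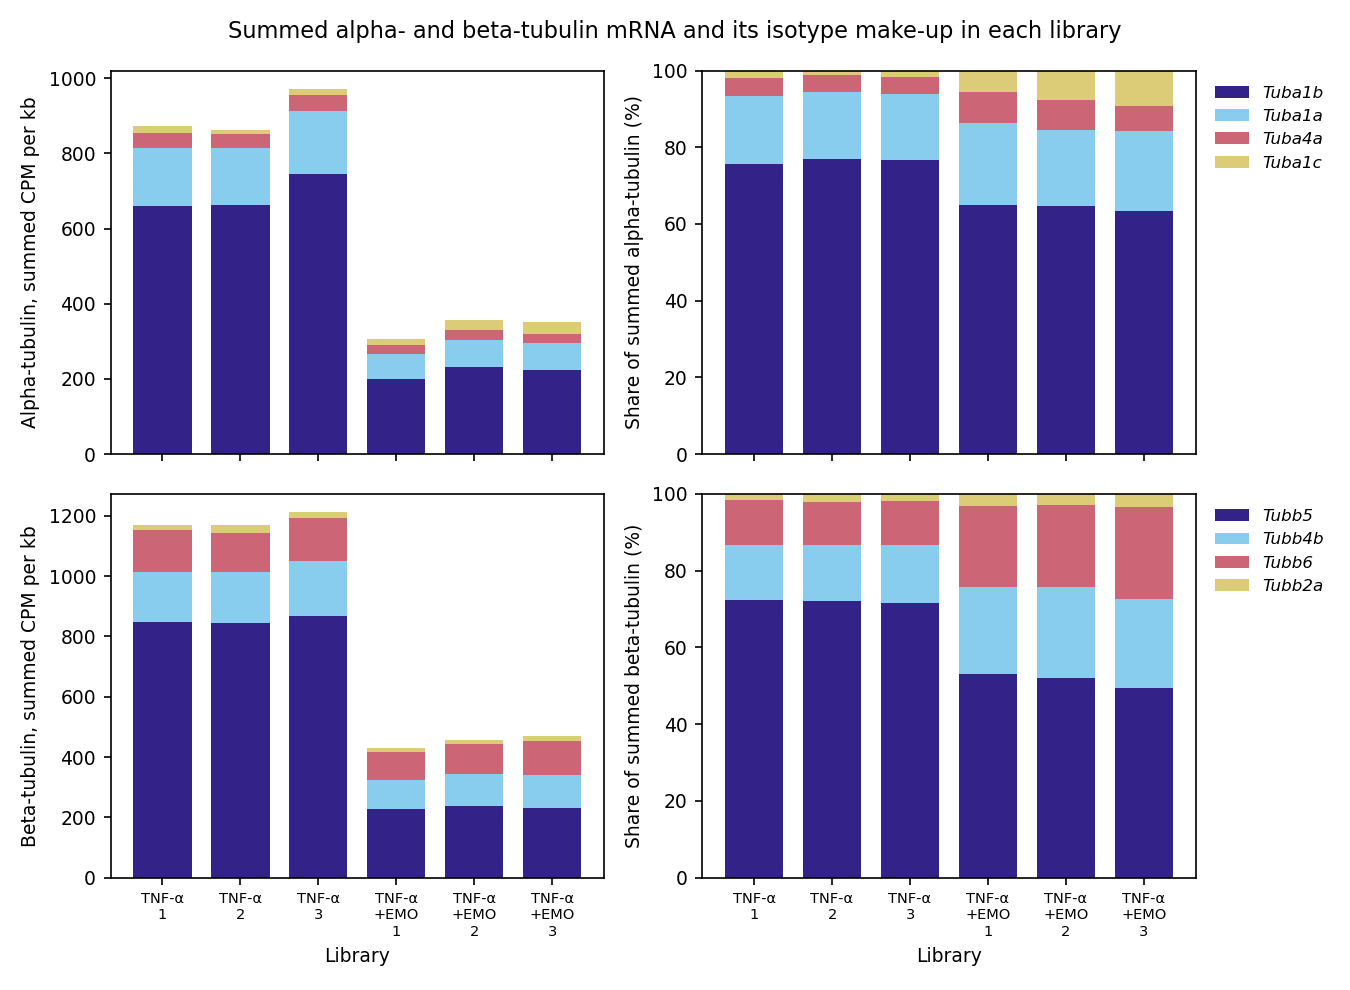
Summed level (left, CPM per kb) and isotype share (right, percent) of alpha-tubulin (top) and beta-tubulin (bottom), 1 bar per library with the isotypes stacked, and Tubb2b and Tubb3 too low to be drawn. With EMO the sums stand at 37.6% (alpha) and 38.0% (beta) of the level with TNF-α, and the Tubb5 share is 49.5% to 53.0%, against 71.7% to 72.4%.

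The other tubulins of the table divided. Tubg1, gamma-tubulin, which nucleates microtubules (chromosome 10, 89030865 to 89037455), had 2077, 1897 and 1944 normalized counts with TNF-α and 2554, 2631 and 2859 with TNF-α+EMO. It was higher in all 3 TNF-α+EMO libraries, with a log2 fold change of 0.44 (SE 0.07, edgeR adjusted p = 9.5e-05), opposite in sign to the 7 isotypes that passed. Tube1, epsilon-tubulin of the centriole, was lower with a log2 fold change of -1.10 (SE 0.14, edgeR adjusted p = 2.6e-05), and Tubd1, delta-tubulin, had a log2 fold change of -0.40 (SE 0.17) that did not pass (adjusted p = 0.051) and passed in 5 of 13 alternatives. Tuba3a, Tuba3b, Tuba8, Tubal3 and Tubb4a had at most 5 counts in any library, and Tubb1 and Tubg2 had 0 in all.

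Genes that fold tubulin were examined next. Of 16 genes of the chaperonin and prefoldin with their partners, 14 rose, 0 fell and 2 (Cct8 and Pfdn4) did not pass, beside 39.4% of all genes tested that were higher and 41.4% that were lower, and the list had a median log2 fold change of 0.68. Cct7, a chaperonin subunit, had 8739, 8716 and 9142 normalized counts with TNF-α and 13957, 14341 and 14959 with TNF-α+EMO, a log2 fold change of 0.70 (SE 0.06, edgeR adjusted p = 4.1e-07). It was named after its values were seen, as the most abundant of the list. The largest rises were in Pfdn2, a prefoldin subunit (log2 fold change 1.86, standard error 0.24), and Txndc9, a regulator of the chaperonin (1.71, standard error 0.08). The Pfdn2 level was uneven among the TNF-α+EMO libraries, with 1305, 1525 and 2361 normalized counts. Chaperonin and prefoldin also fold other proteins, actin among them.

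Of 9 tested cofactors and regulators of tubulin mRNA, 7 rose, 1 fell and 1 did not pass, against the same 39.4% higher and 41.4% lower over all genes, and the median log2 fold change was 0.56. Tbce and Tbcel, both cofactor E proteins that can act on the alpha-tubulin chain, rose with log2 fold changes of 1.08 and 1.03, and Tbcd, which holds the beta chain, fell (-0.31, standard error 0.08). Ttc5, which recognises nascent tubulin in the control of tubulin mRNA, had 378.6, 403.7 and 416.9 normalized counts with TNF-α and 572.4, 520.8 and 469.6 with TNF-α+EMO, a log2 fold change of 0.38 (SE 0.10, edgeR adjusted p = 0.0037). It was named after its values were seen, for its role.

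Among 10 genes of the gamma-tubulin complex and its anchors, 2 rose, 4 fell and 4 did not pass, with a median log2 fold change of -0.08. The number called in this list was 4 to 6 over the 13 alternatives. Cdk5rap2, which ties the complex to the centrosome, fell (log2 fold change -2.60, SE 0.10), as did Tubgcp6 (-0.95, SE 0.08), whereas Tubgcp2 and Tubgcp5, subunits of the complex, had small rises close to the threshold (log2 fold changes 0.17 and 0.25, edgeR adjusted p = 0.039 and 0.029). Of 17 tested enzymes that modify tubulin, 6 rose, 10 fell and 1 did not pass (median log2 fold change -0.69). With 39.4% of all genes tested higher and 41.4% lower, the counts of these 2 lists are given as a description only. Sirt2, a deacetylase of alpha-tubulin and other proteins, rose (log2 fold change 2.08, SE 0.06), as did Ttll3, a glycylase (2.25, SE 0.20). Ttll5, a glutamylase, and Ttll12 fell, with log2 fold changes of -1.94 and -1.67.

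Proteins that bind or destabilise microtubules divided. Of 10 tested stathmins, depolymerising kinesins and severing enzymes, 8 fell and 2 rose, with a median log2 fold change of -2.20. Kif2c and Kif18a, motors that shorten microtubules in mitosis, fell, with log2 fold changes of -3.76 and -3.56, and Katna1, the severing subunit of katanin, rose (log2 fold change 1.38, SE 0.09). Of 24 tested structural and plus-end binding proteins (MAPs), 15 fell, 7 rose and 2 did not pass (median log2 fold change -0.78). Over all genes tested, 41.4% were lower and 39.4% higher. The spindle proteins Tpx2 and Prc1 fell, with log2 fold changes of -5.06 and -4.99, and Map6, a stabiliser of cold-resistant microtubules, rose (log2 fold change 2.48, SE 0.10).

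**Figure D4:**
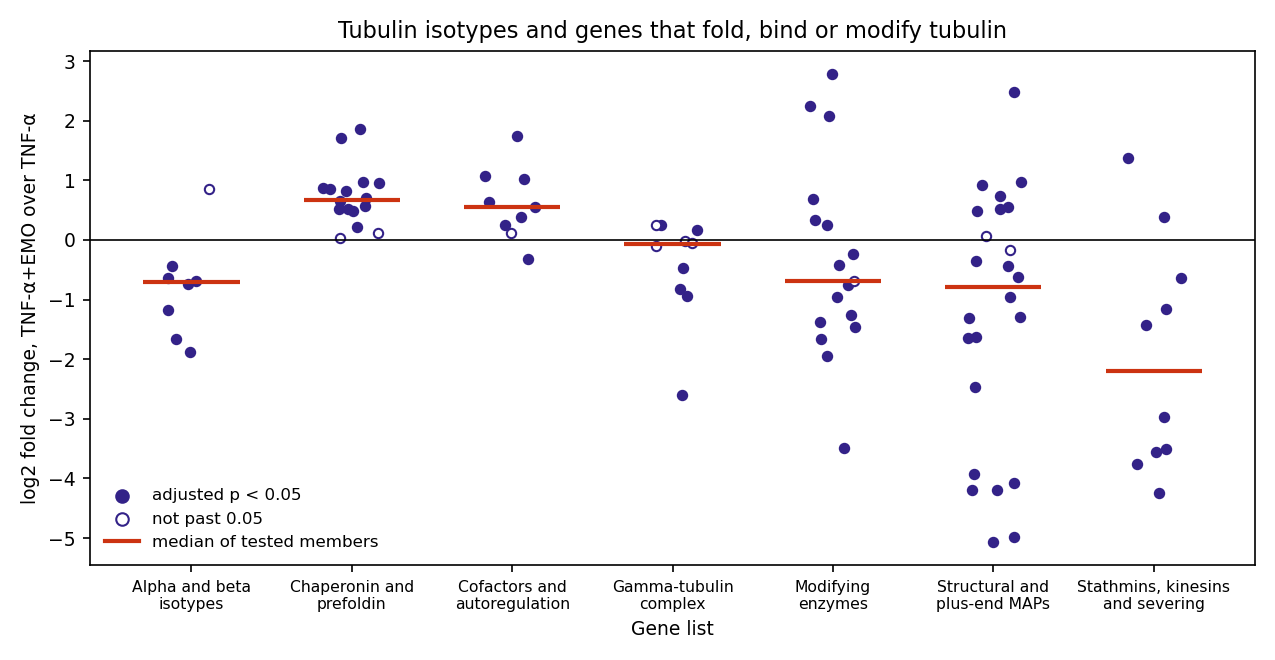
Log2 fold change (TNF-α+EMO over TNF-α) of the tested isotypes and of the tested genes of 6 lists, 1 point per gene, filled where the adjusted p was under 0.05, with a red line at the median of each list. Chaperonin, prefoldin and cofactor genes lie mostly above 0 (medians 0.68 and 0.56), and the isotypes, modifying enzymes, MAPs and depolymerising proteins mostly below (medians -0.71, -0.69, -0.78 and -2.20).

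Markers of proliferation fell alongside the isotypes. All 12 of the list were lower with EMO, beside 41.4% of all genes tested that were lower and 39.4% that were higher. The summed level of these markers ranged from 809 to 825 CPM per kb with TNF-α and from 169 to 177 with TNF-α+EMO. Their part in the fall of the tubulins was not tested. Of 13 synovial fibroblast markers, all 10 that could be tested were lower, against the same 41.4% of all genes tested. Prg4, Pdpn and Thy1 were too low to test in both groups, so these markers of the labelled cell type were at or near 0. In contrast, Col1a1 (-4.91) and Vim (-0.92) were counted at high levels and had negative log2 fold changes. The fall of Vim was the smallest of the 10 tested, whose median log2 fold change was -5.96. Of the 10 neuronal markers, 5 were at 0 in every library, and their summed level was at most 1.28 CPM per kb in any library. The summed level was 43.4 to 46.6 CPM per kb with TNF-α and 28.6 to 30.9 with TNF-α+EMO for 9 macrophage markers (3 tested, 2 higher and 1 lower), and at most 0.668 for 5 endothelial markers (1 tested and lower). For 7 epithelial markers (2 tested, Krt8 lower and Cldn4 higher) the summed level was 297 to 323 with TNF-α and 59.3 to 69.7 with TNF-α+EMO. Nearly all of that sum was Krt8 (mean 310 CPM per kb with TNF-α and 63.9 with TNF-α+EMO). Of the macrophage markers, Cd14 had 1055 to 1163 counts per library with TNF-α and 451 to 536 with TNF-α+EMO (log2 fold change -1.10). Cd68 had 142 to 172 with TNF-α and 239 to 259 with TNF-α+EMO (log2 fold change 0.75). Apart from Cd14, Cd68 and Krt8, the macrophage and epithelial markers had few or no counts in either group. The part of all these markers in the results was not tested. Libraries of one group differed by more than sampling noise, with a chi-square statistic per gene (near 1 for noise alone) of 4.62 to 5.73 between TNF-α libraries and of 6.27 to 23.5 between TNF-α+EMO libraries.

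The genes whose profile over the 6 libraries was most like that of Tubb5, among 3919 genes with a mean of at least 1000 normalized counts, were Tcaf1, Fads1, Anxa6, Aldh3a2 and Numa1. The Euclidean distance between their log2 profiles, centred per gene, and that of Tubb5 was 0.0728 to 0.0920. Since the profile is mainly the step between the groups, the likeness describes a fall of the same size (log2 fold changes of -1.94 to -1.82).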

How the data were processed

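The authors deposited counts per gene, raw and without normalization, for 6 poly(A)-selected paired-end libraries, made with FastQC, Trimmomatic and Hisat2 on the rat build Rnor_6.0 according to the submitters' processing notes and the methods. The counting program, annotation and strand setting are not given in the sources used here. The authors also deposited FPKM values (scaled by gene length and mapped reads) and their own DEseq comparison, holding a group mean score, a log2 ratio and a p-value with its adjusted form for each gene, and none of these was used. The gene length that the authors deposited is a value of other kind, in bases, and was used to compare levels between genes.

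The 13614 genes that reached 10 counts in 3 or more libraries were scaled by TMM. They were compared with edgeR 4.0.16 in R 4.3.3 (robust quasi-likelihood F test, Benjamini-Hochberg adjustment over all of them). The fit had first been run on simulated counts, in which far fewer genes changed than were called here. That run could not show how the scaling behaves where most genes change. The standard error is the log2 fold change divided by the root of F. The library totals of 16813322 to 17794455 counts set a floor of 3 counts, which covers counting error only, since PCR copies cannot be told from molecules here. Sums and shares were compared by two-sided exact permutation tests (adjusted over the 8 shares that could be tested, not 10 as planned). DESeq2 1.42.0, other scalings and filters, the replicate number as a block and leaving out each library were alternatives, and the sum with tubulin-like rows was added after seeing the data.

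The members and gene lists were chosen with earlier results of these data known, and are described by counts and medians, with no test of a list. Named genes were all isotypes and other tubulins and, per pathway list, the 2 largest rises and 2 largest falls among genes that passed with a mean of at least 50 normalized counts (the 2 most abundant for marker lists), apart from 1 gene that is not reported here. Of the listed genes, 6 were not analysed here. Promoters came from RefSeq (GRCr8).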

Additional observations from a re-analysis of the deposited data

How the results depend on the processing

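The 7 isotypes that were lower with EMO were lower and past the threshold in all 13 alternative fits, and 7 or 8 isotypes were called in each, with Tuba1c the added one. With the threshold on the fold change, 3 or 4 were called, the fourth only without TNF-α+EMO replicate 1. Leaving out one library at a time, the summed alpha-tubulin difference ranged from -1.45 to -1.34 and the summed beta-tubulin difference from -1.42 to -1.36 on the log2 scale. Scaling by library totals alone moved the median of all genes from -0.01 to -0.13, and the alpha and beta sums to -1.53 and -1.51. The beta sum was -1.45 without division by gene length, where the share gained was 1.84 percentage points for Tubb2a (1.26 with length) and 7.63 for Tubb4b (8.53 with length). The number called was 12 to 15 in the chaperonin list, against 14, and in the gamma-tubulin complex list it was 4 to 6, against 6, with 4 in DESeq2 and without TNF-α replicate 1, 2 or 3 or TNF-α+EMO replicate 1. With the tubulin alpha-like rows added, the alpha sum moved by less than the spread between libraries. Replicate numbers are not said to pair libraries. The correlations of the deviations of same-numbered libraries were 0.02, -0.01 and 0.07. TNF-α+EMO replicate 1 correlated best with TNF-α replicate 2, whereas TNF-α+EMO replicate 3 correlated best with TNF-α replicate 3. So few libraries cannot decide whether a pairing exists. With the replicate block, 7 isotypes were called and 10806 genes in all, against 11008. Depth limits what can be said of Tubb2b and Tubb3, and 3 libraries per group are too few to test for an outlying library.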
